A study of Rattus norvegicus with 192 samples.

Results

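Liver RNA of male rats given vancomycin together with PFOS was compared with liver RNA of rats given PFOS alone, to ask what the antibiotic added once PFOS was present. The members are the 24 liver libraries whose titles name these treatments, of 192 libraries in the series, and 18 of the 24 held at least 100000 counts and were kept. The series measured hypothalamus, pituitary, thyroid and liver by 3' bulk RNA barcoding sequencing (BRB-seq), which tags the RNA of each sample with its own barcode before pooling and counts the 3' ends of polyadenylated transcripts. All rats were adult wild-type males of the Crl:CD(SD) stock, an outbred line, and all were dosed once a day by gavage on postnatal days 56 to 62, for 7 days. The combination group received 8 mg vancomycin and 3 mg PFOS per kg body weight per day (12 libraries, 10 kept). The PFOS group received 3 mg/kg PFOS (12 libraries, 8 kept), the vancomycin group 8 mg/kg vancomycin (12 libraries, 10 kept), and the vehicle group corn oil (12 libraries, 9 kept).

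Vancomycin is a glycopeptide antibiotic that is poorly taken up from the gut and acts mainly on Gram-positive gut bacteria, many of which deconjugate or dehydroxylate bile acids. The liver makes bile acids from cholesterol and holds their synthesis in check through the bile acid receptor FXR, so genes of bile acid synthesis and transport are the classical liver readout of a change in the gut flora. PFOS (perfluorooctane sulfonate) is a persistent perfluorinated surfactant that accumulates in liver, where it is known to activate the nuclear receptors CAR and PPARα, which switch on drug-metabolising and fatty acid oxidation enzymes.

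Total counts of the kept libraries ran from 137827 to 3387946 under the combination (median 631340) and from 107856 to 917341 under PFOS (median 447620). The difference in log10 total count between the groups was 0.131 (two-sided exact permutation test, p = 0.457). The libraries left out held 2486 and 28558 counts under the combination and 1466 to 2846 counts under PFOS. Albumin (Alb), the main plasma protein made by hepatocytes, took 3.99% to 7.29% of the counts in combination livers and 3.94% to 8.42% in PFOS livers. Each treatment filled its own plate row (row H for the combination, row G for PFOS), so treatment and row cannot be told apart. The labels do not say that the libraries of a group came from separate animals, so the p-values measure the spread between these samples.

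No gene passed the test between combination and PFOS livers. Levels are given in CPM, a gene's counts over the scaled total of its library, and differences, alone or in parentheses, as log2 fold changes of the combination over PFOS ± standard error (SE). Means are given ± SD (n = 10 combination, 8 PFOS, 10 vancomycin and 9 vehicle livers). Of 3250 genes tested, 0 had an edgeR adjusted p under 0.05, which is 0% of the genes, and the lowest adjusted p was 0.803. At an unadjusted p under 0.05 there were 114 genes, or 3.51% of those tested, 52 higher (1.6%) and 62 lower (1.91%). DESeq2 likewise called 0 genes (117 at an unadjusted p under 0.05) and limma voom called 0 (199 at an unadjusted p under 0.05). Leaving out combination replicate 42 raised the edgeR count at an unadjusted p under 0.05 to 217, with 0 calls. No gene had combination and PFOS ranges that did not overlap (0% higher, 0% lower).

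How large a difference these livers leave room for can be read from the 95% intervals. For 2899 genes (89.2%) the whole interval lay within a 2-fold difference in either direction, and for 1391 genes (42.8%) within 1.5-fold. The median log2 fold change over all genes was -0.0018, with 1608 genes (49.5%) above 0. Fold changes beyond 2 in either direction were fitted for 10 genes, 6 higher and 4 lower, and 0 of these passed.

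**Figure D1:**
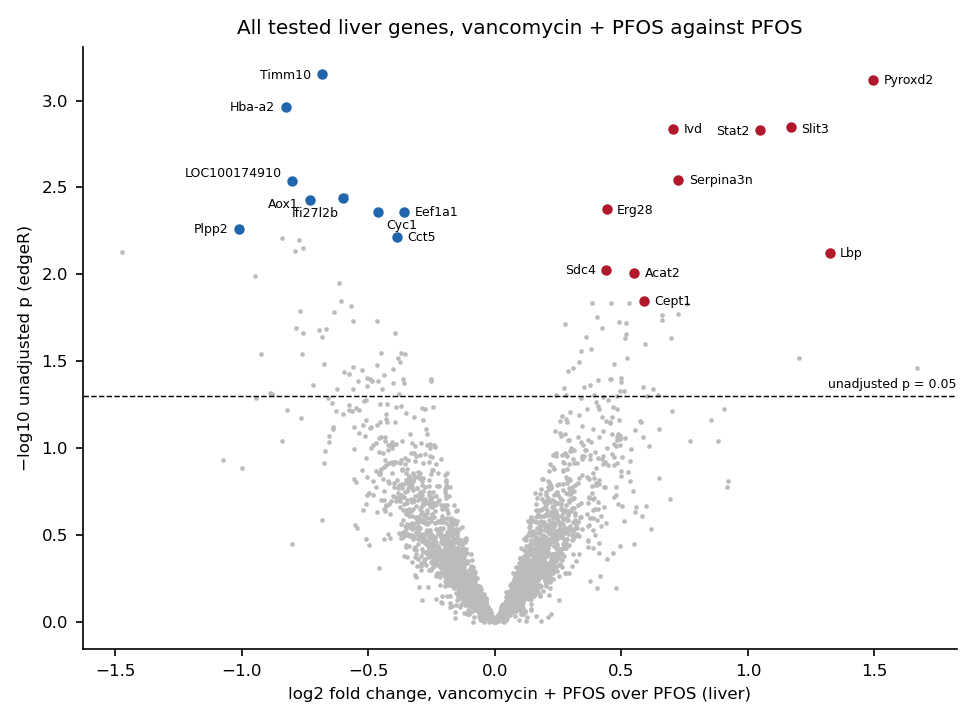
Log2 fold change of the combination over PFOS in liver (x axis) against the negative log10 of the unadjusted edgeR p (y axis) for the 3250 genes tested, with 10 genes of lowest p named on the higher side and 9 on the lower, among those averaging 5 or more counts per library in their higher group (red higher, blue lower under the combination). The cloud is centred on 0, and the named genes have adjusted p-values between 0.803 and 0.9997.

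The clearest landmark in these livers is the PFOS response itself, and none of its genes passed when vancomycin was added. In PFOS livers against vehicle livers, 27 of 3250 genes passed (0.831%, edgeR adjusted p under 0.05), 14 higher and 13 lower. The lower side of this split depends on the setting. The calls were 4 higher and 0 lower with the GC content of the library barcode as a covariate, and 5 and 0 without libraries of unusual barcode GC. Every kept liver library of unusual barcode GC came from vehicle (replicates 1 to 5). These settings therefore cannot fully separate barcode GC from the vehicle group. The calls were 6 and 0 with libraries under 500000 counts left out, which leaves 3 PFOS and 3 vehicle livers. A fit of the 2 groups alone gave 7 and 1. In the remaining settings the lower calls ran from 2, with no filter on low counts, to 11, with limma voom or log2 depth as a covariate. The same 27 genes had log2 fold changes between -0.64 and 0.88 for the combination over PFOS, with a median of 0.11, and 0 of them passed. The 14 genes called higher under PFOS had a median of 0.01 and the 13 called lower one of 0.19. For 24 of the 27 the 95% interval lay within 2-fold, the exceptions being Aldh1a7, Ephx2 and Tmem125. Both comparisons use the same PFOS libraries, so their values are given side by side and not as a relation.

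Cyp2b1 and Cyp2b2 are the phenobarbital-inducible cytochromes P450 of rat liver, switched on through CAR. Their upstream regions are shown because the pair had the lowest p-values of the PFOS response and moved together. They are nearly identical copies, so how reads were divided between the genes is uncertain. Capitals mark the letters ATAAAA, searched on both strands (TTTTAT on the other), in the bases before each annotated gene start (RefSeq, GRCr8, plus strand, chr1:90645869-90646097 for Cyp2b1 and chr1:90722031-90722242 for Cyp2b2).
Cyp2b1: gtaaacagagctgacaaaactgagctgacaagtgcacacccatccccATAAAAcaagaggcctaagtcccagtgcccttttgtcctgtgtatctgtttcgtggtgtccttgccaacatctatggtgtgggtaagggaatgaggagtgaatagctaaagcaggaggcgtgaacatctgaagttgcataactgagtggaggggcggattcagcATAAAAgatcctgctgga
Cyp2b2: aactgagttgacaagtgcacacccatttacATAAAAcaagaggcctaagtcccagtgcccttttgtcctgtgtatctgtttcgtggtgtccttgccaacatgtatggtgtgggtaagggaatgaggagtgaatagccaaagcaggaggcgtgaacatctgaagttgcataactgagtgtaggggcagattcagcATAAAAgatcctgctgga
The 2 regions are identical at 204 of 212 aligned bases (96.2%), and each holds 2 matches, 1 of them close to the gene start. The same letters occur at least once in 4431 of 27457 RefSeq promoter windows (16.1%), each the first 212 bases of a stored promoter sequence. Such windows need not end at the gene start, as the 2 printed regions do. A match describes the sequence and is not read as a site.

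Cyp2b1 had 165 CPM in the lowest, 372 CPM in the median and 766 CPM in the highest combination library, against 100.3, 255 and 763 CPM under PFOS. The ranges almost coincide, and the log2 fold change was 0.21 ± 0.34 (95% interval -0.48 to 0.90). Its means were 20.9 ± 15.7 CPM under vancomycin and 21.4 ± 16.8 CPM under vehicle, far below every library of the PFOS-treated groups. Cyp2b2 had 376, 639 and 813 CPM (lowest, median, highest) under the combination and 169.8, 573 and 704 CPM under PFOS, a log2 fold change of 0.28 ± 0.21 (-0.14 to 0.70). Here 9 of 10 combination libraries lay above the PFOS mean, within overlapping ranges. Cyp2b2 averaged 82.5 ± 27 CPM under vancomycin and 107 ± 43.5 CPM under vehicle, and the test of whether the vancomycin difference itself depended on PFOS gave 0.64 ± 0.31 (unadjusted p = 0.0458, edgeR adjusted p = 0.9999).

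Other CAR and PXR target enzymes gave 0 calls too. Cyp2c6v1, an abundant drug-metabolising P450, averaged 4493 ± 779 CPM under the combination and 4090.1 ± 1149 CPM under PFOS (0.13 ± 0.16), with 1974 ± 199 CPM under vancomycin and 2009.5 ± 643 CPM under vehicle. Cyp3a2, the P450 classically induced through PXR, averaged 4747 ± 828 CPM under the combination and 3974 ± 868 CPM under PFOS (0.25 ± 0.18), with 2679 ± 410.4 CPM under vancomycin and 2255 ± 927 CPM under vehicle. The glucuronosyltransferase Ugt2b1 differed by 0.11 ± 0.16, the carboxylesterase Ces2a by -0.18 ± 0.22 and the aldehyde dehydrogenase Aldh1a7 by 0.00 ± 0.54, whose interval of -1.10 to 1.10 is among the widest of the 27. In the whole list of 21 measured CAR and PXR genes, 0 passed, 12 were above 0 and 9 below, and the median was 0.11. The 1 member with an unadjusted p under 0.05 was Nr1i3, the gene of CAR itself, with 18.9, 38.9 and 58.9 CPM under the combination against 9.49, 20.03 and 54.5 CPM under PFOS. Its groups overlap widely, with a log2 fold change of 0.66 ± 0.27 (unadjusted p = 0.0183, edgeR adjusted p = 0.9997). Of the AhR targets, Cyp1a2 and Nqo1 were measured, at 0.36 ± 0.15 and 0.55 ± 0.40, and 0 passed.

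**Figure D2:**
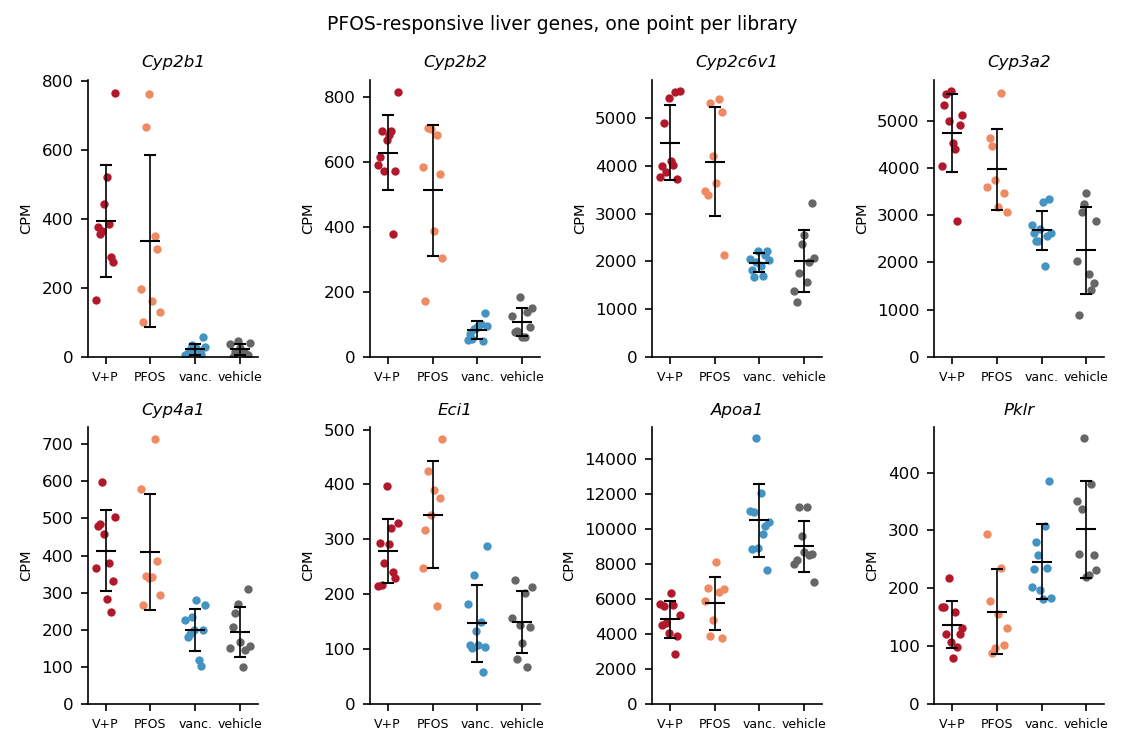
CPM of 8 liver genes that differed between PFOS and vehicle, 1 point per kept library, with mean and SD, in the combination (V+P, n = 10), PFOS (n = 8), vancomycin (vanc., n = 10) and vehicle (n = 9) groups. V+P and PFOS points overlap in every panel, and for Cyp2b1 both stand clear of the groups without PFOS.

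Among the PPARα targets, which oxidise fatty acids in peroxisomes and at the omega end, 0 genes passed. Cyp4a1, the fatty acid omega-hydroxylase, averaged 413 ± 109.5 CPM under the combination and 409 ± 156 CPM under PFOS, a log2 fold change of 0.01 ± 0.20 (-0.39 to 0.41). The peroxisomal thiolase Acaa1b was scarce, at 27.1 ± 10.7 CPM under the combination and 22.9 ± 11.4 CPM under PFOS (0.26 ± 0.31), with 4.71 ± 4.71 CPM under vancomycin and 3.39 ± 2.86 CPM under vehicle. The isomerase Ech1 differed by 0.02 ± 0.19, the mitochondrial enoyl-CoA isomerase Eci1 by -0.30 ± 0.22 and the epoxide hydrolase Ephx2 by -0.64 ± 0.33 (-1.30 to 0.01). Of 17 measured genes of this list 0 passed, 10 were above 0 and 7 below, with a median of 0.02. The 1 member with an unadjusted p under 0.05 was the acyl-CoA thioesterase Acot4, at 28 ± 11.4 CPM under the combination and 47.3 ± 24.7 CPM under PFOS (-0.69 ± 0.29, unadjusted p = 0.0209). Mitochondrial fatty acid oxidation had 19 measured members, 0 with an unadjusted p under 0.05, and every interval lay within 2-fold. Its median was -0.01, and Acadl, which starts the oxidation of long-chain acyl-CoA, had the lowest p of the list (-0.24 ± 0.14).

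The 13 genes called lower under PFOS gave 0 calls for the combination over PFOS as well, and none of the lower calls under PFOS itself held in the barcode GC settings or with libraries under 500000 counts left out. Apoa1 and Pklr stayed among the PFOS calls with DESeq2 and limma voom. Apoa1, which forms most of the protein of high-density lipoprotein, had 2828, 4832 and 6322 CPM (lowest, median, highest) in combination livers against 3743, 6115 and 8116 CPM in PFOS livers. The log2 fold change was -0.26 ± 0.15 (-0.56 to 0.05), and 9 of 10 combination libraries were below the PFOS mean, while livers averaged 10475 ± 2079 CPM under vancomycin and 8989 ± 1439 CPM under vehicle. The interaction for Apoa1 was -0.47 ± 0.21 (unadjusted p = 0.0323, edgeR adjusted p = 0.9999). Pklr, the liver pyruvate kinase, averaged 137 ± 41.1 CPM under the combination and 159.8 ± 73.3 CPM under PFOS (-0.22 ± 0.21). Acat2, which joins acetyl-CoA units at the start of cholesterol synthesis, had 42.3, 58.3 and 79.5 CPM under the combination against 20.8, 38.3 and 106 CPM under PFOS. With 0.55 ± 0.20 (unadjusted p = 0.00985, edgeR adjusted p = 0.9997) it was, beside the glycerol channel gene Aqp9, 1 of 2 PFOS-called genes with an unadjusted p under 0.05, and its highest library was a PFOS liver. Among the 27 genes the interaction had an unadjusted p under 0.05 for 5, Apoa1, Coa5, Cyp2b2, Jund and Rab9a. The PFOS and vehicle libraries that chose these genes also enter the interaction, so the count is a description and cannot be read against the 1.78% of all genes.

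Bile acid genes, the classical readout of the gut flora in liver, gave 0 calls. Cyp7a1, the rate-limiting enzyme of bile acid synthesis, had 46.4, 167 and 307 CPM (lowest, median, highest) under the combination and 44.4, 199 and 389.9 CPM under PFOS. It varied several-fold within each group, so its log2 fold change of -0.28 ± 0.35 carries an interval of -0.98 to 0.43, and a difference inside it was not detectable at this spread. Cyp8b1, the sterol 12α-hydroxylase that sets the share of cholic acid, had 161, 249 and 703 CPM under the combination against 108, 235 and 402 CPM under PFOS, a log2 fold change of 0.23 ± 0.31 (-0.40 to 0.86). The high value is a single combination library, and the rest lie inside the PFOS range. Cyp27a1, which opens the alternative pathway, differed by -0.05 ± 0.21 and Slc27a5, which activates bile acids for conjugation, by 0.38 ± 0.17 (unadjusted p = 0.0267, edgeR adjusted p = 0.9997). Slc27a5 was the 1 of 15 measured synthesis genes with an unadjusted p under 0.05, and the list had 9 members above 0, 6 below and a median of 0.05.

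The FXR target Nr0b2 (SHP), a repressor of Cyp7a1, averaged 99.4 ± 47.7 CPM under the combination and 101 ± 61 CPM under PFOS (-0.01 ± 0.34, interval -0.70 to 0.68). Abcb11, the bile salt export pump, differed by -0.26 ± 0.19, the canalicular transporter Abcc2 by -0.26 ± 0.18 and the uptake carrier Slc10a1 (NTCP) by 0.04 ± 0.21. The organic anion carrier Slco1a4 had 49.2, 107 and 192 CPM in combination livers and 44.1, 79.8 and 133 CPM in PFOS livers. At 0.49 ± 0.20 (unadjusted p = 0.0187, edgeR adjusted p = 0.9997) it was the 1 of 9 measured transport and FXR genes with an unadjusted p under 0.05, and its groups overlapped. The list had 6 members above 0 and 3 below, with a median of 0.04.

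The genes with the lowest p-values do not belong to a single function. On the higher side, Pyroxd2, a mitochondrial oxidoreductase, had 7.58, 23.4 and 45.4 CPM (lowest, median, highest) under the combination against 0, 9.93 and 24.6 CPM under PFOS (1.49 ± 0.41). It averaged 23.3 counts per combination library and 4.25 counts per PFOS library, so single counts weigh heavily. Ivd, the isovaleryl-CoA dehydrogenase of leucine breakdown, had 41.7, 92.2 and 185 CPM under the combination against 16.4, 55.6 and 87.3 CPM under PFOS (0.70 ± 0.21), with 9 of 10 combination libraries above the PFOS mean. The guidance ligand Slit3 differed by 1.17 ± 0.34, the ergosterol biosynthesis homologue Erg28 by 0.44 ± 0.15, the heparan sulfate proteoglycan Sdc4 by 0.44 ± 0.16 and Cept1, which makes choline and ethanolamine phospholipids, by 0.59 ± 0.23. Sdc4 was the 1 of these 6 above the PFOS mean in 10 of 10 combination libraries, yet its ranges overlapped as well (242 to 482 CPM under the combination, 169.8 to 322 CPM under PFOS).

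On the lower side, Timm10, a chaperone of the mitochondrial intermembrane space, had the lowest p of all genes. It had 29.4, 52.8 and 114 CPM under the combination and 56.7, 74.96 and 154 CPM under PFOS (-0.68 ± 0.19, unadjusted p = 0.000706, edgeR adjusted p = 0.803). The highest combination value came from replicate 42, and the next one was 60.1 CPM. Without that library the log2 fold change was -0.84 ± 0.17 and the edgeR adjusted p 0.0554, above the threshold. Others on the lower side were the interferon-inducible Ifi27l2b (-0.60 ± 0.20), the aldehyde oxidase Aox1 (-0.73 ± 0.24), the complex III subunit Cyc1 (-0.46 ± 0.15), the elongation factor Eef1a1 (-0.36 ± 0.12), the lipid phosphatase Plpp2 (-1.01 ± 0.35), the chaperonin subunit Cct5 (-0.39 ± 0.13) and LOC100174910 (-0.80 ± 0.25). Hba-a2 on this side, and Stat2, Serpina3n, Lbp and Acat2 on the other, are described with their functions. All 20 genes of lowest p on the 2 sides had overlapping ranges and adjusted p-values from 0.803 to 0.9997.

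Haemoglobin transcripts formed the list with the lowest median. Hba-a2, an alpha-globin, had 546, 943 and 1807 CPM (lowest, median, highest) in combination livers against 1244, 1745 and 2772 CPM in PFOS livers (-0.83 ± 0.24, edgeR adjusted p = 0.803). None of the 10 combination libraries exceeded the PFOS mean, although the 3 highest reached into the PFOS range. Hba-a1 differed by -0.61 ± 0.24, the beta-globins Hbb and Hbb-b1 by -0.72 ± 0.34 and -0.68 ± 0.29, and Alas2, the first enzyme of haem synthesis in red cell precursors, by -0.95 ± 0.35. All 5 measured blood cell markers thus had an unadjusted p under 0.05 on the lower side, against 1.91% of all genes, with a median of -0.72 and 0 passing. With each library left out in turn the median stayed between -0.86 and -0.56. Hba-a1 and Hba-a2, and likewise the beta-globins, are close copies that can share reads, and all 5 are red cell genes, so they are not separate observations. The summed level of the list ran from 2443 to 6349 CPM (median 3824) under the combination and from 4649 to 10720 CPM (median 5933) under PFOS. In bulk tissue, fewer cells of a type and less RNA per cell cannot be told apart.

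**Figure D3:**
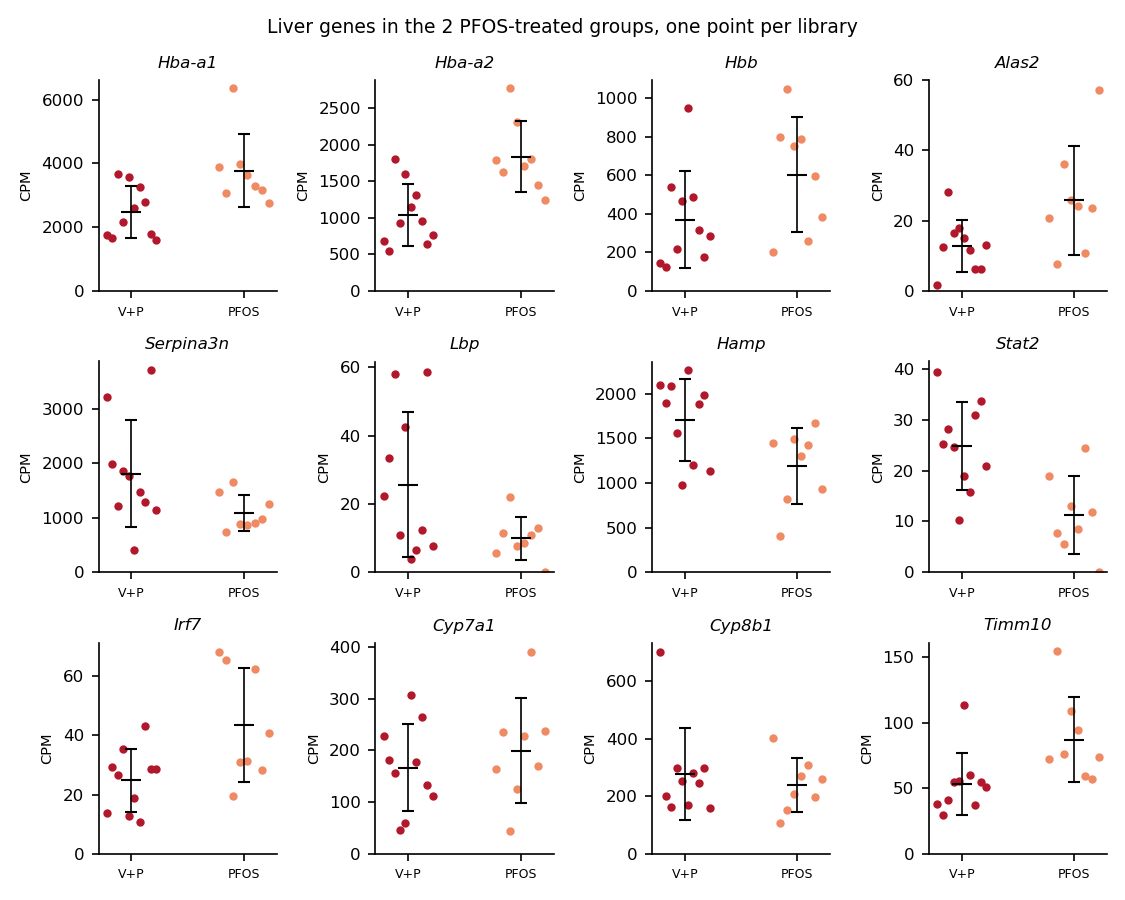
CPM of 12 liver genes in combination (V+P, n = 10) and PFOS (n = 8) livers, 1 point per kept library, with mean and SD. The globins and Alas2 have lower means and Serpina3n, Lbp and Stat2 higher means under the combination, and the ranges of the groups overlap in every panel.

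Markers of other liver cells gave 0 calls. Over all genes, 1.6% had an unadjusted p under 0.05 on the higher side and 1.91% on the lower. Of 10 measured Kupffer cell and macrophage markers, C1qc had an unadjusted p under 0.05, at 14.4, 29.01 and 40.9 CPM under the combination and 25.9, 41.8 and 64.5 CPM under PFOS (-0.77 ± 0.27). Its partner subunits C1qa and C1qb differed by -0.43 ± 0.23 and 0.06 ± 0.22, and the Kupffer cell lectin Clec4f by -0.09 ± 0.23. The summed level of these markers was 296 to 827 CPM in combination livers and 352 to 802 CPM in PFOS livers. Among 7 measured pericentral hepatocyte markers, 3 had an unadjusted p under 0.05, all higher and none passing: the ethanol-inducible Cyp2e1 (0.42 ± 0.18), Cyp1a2 (0.36 ± 0.15) and the ornithine aminotransferase Oat (0.47 ± 0.21). Glul, the glutamine synthetase of the last cells before the central vein, differed by 0.47 ± 0.24. Of the 7 markers 5 were above 0 and 2 below, among them Cyp7a1 at -0.28. The lowest value was -0.30 and the list had a median of 0.36. The 10 periportal markers had a median of 0.03 with 0 at an unadjusted p under 0.05. Of 9 neutrophil markers Mpo, Elane and Cxcr2 were at 0 in these 18 libraries, while S100a9 had counts in 7 of 10 combination and 7 of 8 PFOS libraries and S100a8 in 4 combination and 6 PFOS libraries. Their summed level was 0 to 26.5 CPM under the combination and 5.69 to 18.6 CPM under PFOS. Of 8 pancreas genes Prss1, Ctrb1, Pnlip, Amy2a3 and Ins2 were at 0, and the list summed to 30.8 to 170.5 CPM under the combination and 32.7 to 81.3 CPM under PFOS, nearly all of it Cela1, an elastase gene. Thyroid and parathyroid genes were present at a summed 1674 to 3746 CPM under the combination and 1470 to 3454 CPM under PFOS. Most of this was Tg and Pth, the genes of thyroglobulin and parathyroid hormone. The thyroid libraries of the series were on the same plate as the liver libraries. The source of these counts and their part in any result were not tested.

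Acute phase proteins, which the liver secretes on inflammatory signals, gave 0 calls. Of 13 measured members 0 passed, 10 were above 0 and 3 below, the median was 0.29, and 3 had an unadjusted p under 0.05, all higher, against 1.6% of all genes. The median was 0.06 without combination replicate 46 and 0.13 without PFOS replicate 32. Serpina3n, a serine protease inhibitor, had 417, 1627 and 3706 CPM (lowest, median, highest) under the combination and 745, 936 and 1667 CPM under PFOS (0.72 ± 0.23). Both the lowest and the highest library of that gene came from combination livers. Lbp, which carries bacterial lipopolysaccharide to its receptor, was scarce, at 3.79, 17.3 and 58.8 CPM under the combination against 0, 9.70 and 22.2 CPM under PFOS (1.32 ± 0.47). Hamp, the iron hormone hepcidin, had 980.2, 1889 and 2265 CPM under the combination against 409, 1366 and 1673 CPM under PFOS (0.52 ± 0.22, edgeR adjusted p = 0.9997). The abundant haptoglobin (Hp) differed by 0.34 ± 0.17 (edgeR unadjusted p = 0.0515). Complement (18 measured, median 0.08, every interval within 2-fold) and plasma proteins (27 measured, median 0.08, every interval within 2-fold) had 0 and 1 genes at an unadjusted p under 0.05. The 1 was Apoa2, of high-density lipoprotein, at 9458 ± 1928 CPM under the combination and 7142 ± 1510.2 CPM under PFOS (0.40 ± 0.16), opposite in sign to Apoa1.

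Interferon-response genes did not share a direction. Stat2, a transducer of type I interferon signals, had 10.3, 24.9 and 39.4 CPM under the combination against 0, 10.2 and 24.4 CPM under PFOS (1.05 ± 0.31). Irf7, the interferon regulatory factor that amplifies that response, was on the other side, with 10.9, 27.6 and 43.1 CPM under the combination against 19.4, 36.2 and 68.3 CPM under PFOS (-0.84 ± 0.29). Isg15, a ubiquitin-like interferon target, differed by -0.82 ± 0.42. Of 8 measured members 2 were above 0 and 6 below, with a median of -0.20, and 0 passed. Antigen presentation (7 measured, 0 at an unadjusted p under 0.05) had a median of -0.23, with the class I light chain B2m at -0.23 ± 0.18.

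In lipid and sugar metabolism 0 genes passed. All 10 measured genes of fatty acid synthesis were below 0, where 49.5% of all genes were above 0, with a median of -0.31 and 0 at an unadjusted p under 0.05. Acly, which supplies cytosolic acetyl-CoA, had 64.4, 143 and 319 CPM in combination livers and 45.8, 234 and 533 CPM in PFOS livers (-0.44 ± 0.35, interval -1.16 to 0.28). Its values spread widely within both groups, which overlap. The lipogenic regulator Srebf1 differed by -0.55 ± 0.50 and the desaturase Fads1 by -0.29 ± 0.24. The list's median changed sign under 1 of 12 other settings, to 0.01 with libraries under 500000 counts left out, and was -0.15 without PFOS replicate 25. Of 20 measured cholesterol synthesis genes 18 were above 0, against 49.5% of all genes, with a median of 0.18 (0.11 without combination replicate 37) and every interval within 2-fold. Sqle, the squalene epoxidase, differed by 0.44 ± 0.26, Idi1 by 0.35 ± 0.21 and Msmo1 by 0.31 ± 0.19. Members of 1 pathway are not separate observations, so the share above or below 0 in either list is a description. Glucose metabolism (19 measured, median -0.09) held 1 gene on each side at an unadjusted p under 0.05, the tyrosine aminotransferase Tat at 0.51 ± 0.25 and the glycolytic Gapdh at -0.36 ± 0.17. Pck1, the rate-limiting enzyme of gluconeogenesis, differed by -0.02 ± 0.30.

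The series title concerns the thyroid hormone system, and the liver genes of that system gave 0 calls here. Dio1, the deiodinase that activates thyroxine, had 92.3, 115 and 148 CPM (lowest, median, highest) under the combination and 81.03, 111 and 136 CPM under PFOS. The ranges overlap almost fully (0.05 ± 0.14), and the interval of -0.22 to 0.32 leaves room for less than a 1.5-fold difference. Thrsp, a classical thyroid hormone target, varied much more, between 703 and 3412 CPM under the combination and between 695 and 4278 CPM under PFOS (-0.27 ± 0.32). Ttr, the thyroxine carrier, differed by -0.02 ± 0.16, the iodotyrosine deiodinase Iyd by 0.08 ± 0.15 and the sulfotransferase Sult1b1 by -0.15 ± 0.17. All 10 measured members of the thyroid hormone list had intervals within 2-fold, and the median was 0.03. Iyd is not in that list and was measured among the thyroid and parathyroid genes. Serpina7, the thyroxine-binding globulin, was at 0 in these libraries.

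Ribosomal protein, oxidative phosphorylation, stress response, immediate early and circadian clock lists gave 0 calls. Of 41 measured ribosomal protein genes 37 were below 0 and 4 above, with a median of -0.17, where 49.5% of all genes were above 0. Of these, 2 had an unadjusted p under 0.05 (Rpl4 at -0.35 ± 0.16 and Rps3 at -0.38 ± 0.19), both lower, against 1.91% of all genes. Ribosomal protein genes are not separate observations, so these counts are a description. Their summed level ran from 19020 to 57200 CPM under the combination and from 19770 to 42190 CPM under PFOS, so both the lowest and the highest library were combination livers. The median was -0.58 with libraries under 500000 counts left out and -0.01 with all libraries kept, and -0.35 without combination replicate 42 and -0.07 without PFOS replicate 32. Under PFOS against vehicle the same list had a median of 0.30, and since the PFOS libraries serve in both comparisons the values are only set side by side. Oxidative phosphorylation (27 measured, 19 below 0, median -0.06) had every interval within 2-fold. NRF2 and glutathione genes (15 measured) had a median of 0.13, ER folding genes (16 measured) one of -0.10, and immediate early genes (8 measured) one of -0.03, each with 0 at an unadjusted p under 0.05. Of the circadian clock 3 genes could be measured, with a median of 0.37, among them Dbp at 0.49 ± 0.54 and Nr1d2 at 0.37 ± 0.38.

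**Figure D4:**
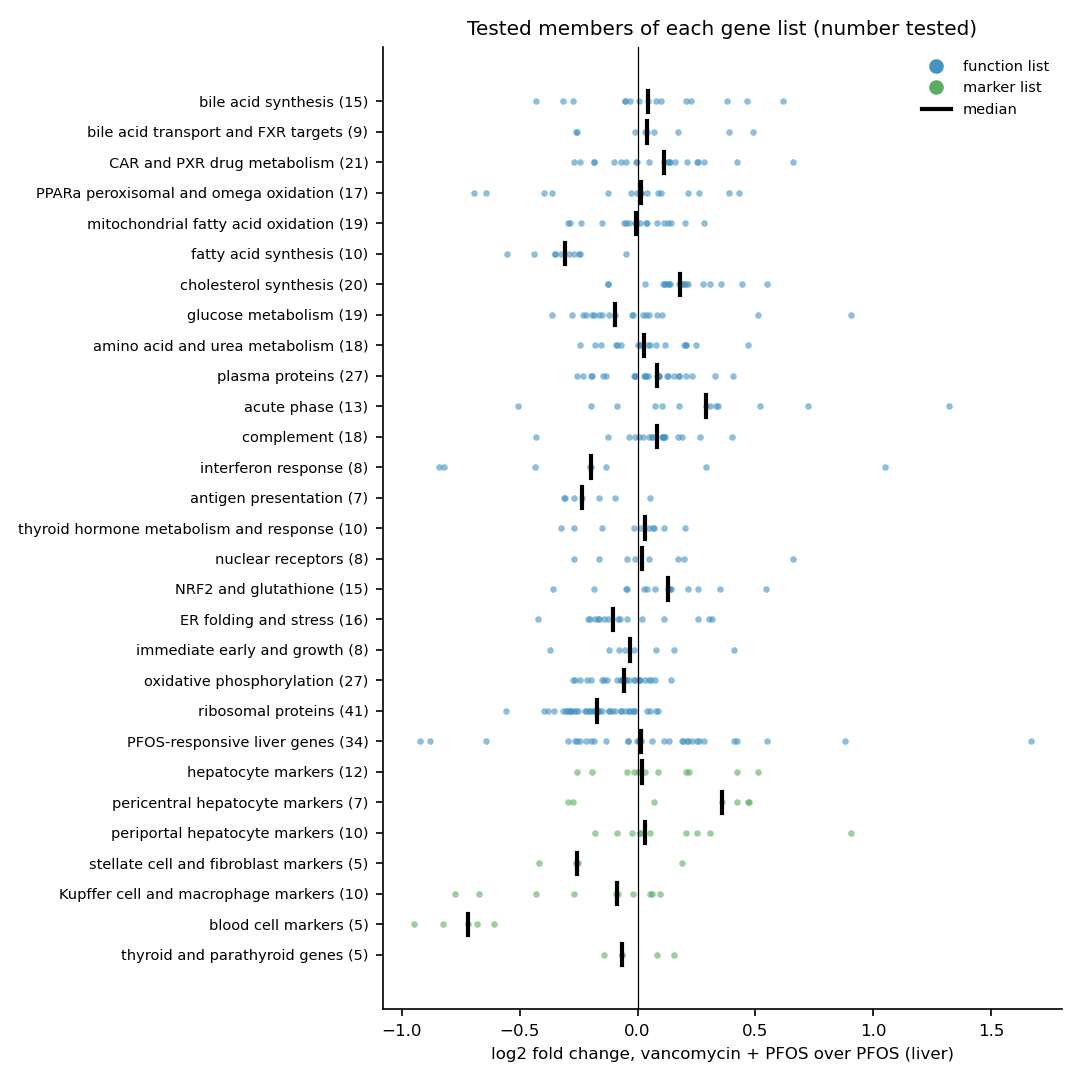
Log2 fold change of the combination over PFOS (x axis) for the tested members of each gene list with at least 5 of them (rows, number tested in parentheses), with the list median as a black bar. Medians lie between -0.72 for blood cell markers and 0.36 for pericentral hepatocyte markers, and most lists straddle 0.

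Vancomycin was also given without PFOS, and that comparison shares no library with the one above. Vancomycin against vehicle called 0 of 3250 genes (0%, edgeR), with 98 at an unadjusted p under 0.05 (3.02%), 30 higher (0.923%) and 68 lower (2.09%). Across genes, the vancomycin difference in PFOS-treated livers and that in livers without PFOS had a Pearson r of 0.17 and a Spearman rho of 0.16 over 3250 genes, which are not independent replicates and share libraries within each comparison. The sign was the same for 1768 genes (54.4%). An unadjusted p under 0.05 in both comparisons was found for 4 genes, and all 4 had the same sign. They are 3.51% of the genes at that p for the combination over PFOS, against 3.02% of all genes for vancomycin over vehicle. They are 4.08% of the genes at that p for vancomycin over vehicle, against 3.51% of all genes for the combination over PFOS. The overlap is thus near the share over all genes.

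These 4 genes, named after their values were seen, were C1qc, Gda, Hamp and Plpp2. Hamp averaged 1708 ± 457 CPM under the combination and 1187 ± 426 CPM under PFOS, and 1684 ± 536 CPM under vancomycin and 1151 ± 365 CPM under vehicle, which gives 0.52 ± 0.22 with PFOS and 0.54 ± 0.21 without it. C1qc differed by -0.77 ± 0.27 with PFOS and -0.55 ± 0.27 without, and Plpp2 by -1.01 ± 0.35 and -0.84 ± 0.34. The interaction, which tests whether the vancomycin difference itself depended on PFOS, called 0 of 3250 genes (0%, edgeR), with 58 at an unadjusted p under 0.05 (1.78%). Among the 20 genes of lowest p on the 2 sides, 7 had an unadjusted interaction p under 0.05, led by Ivd (0.93 ± 0.29) and Pyroxd2 (1.70 ± 0.58). The combination and PFOS libraries enter both tests, so this share is a description.

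**Figure D5:**
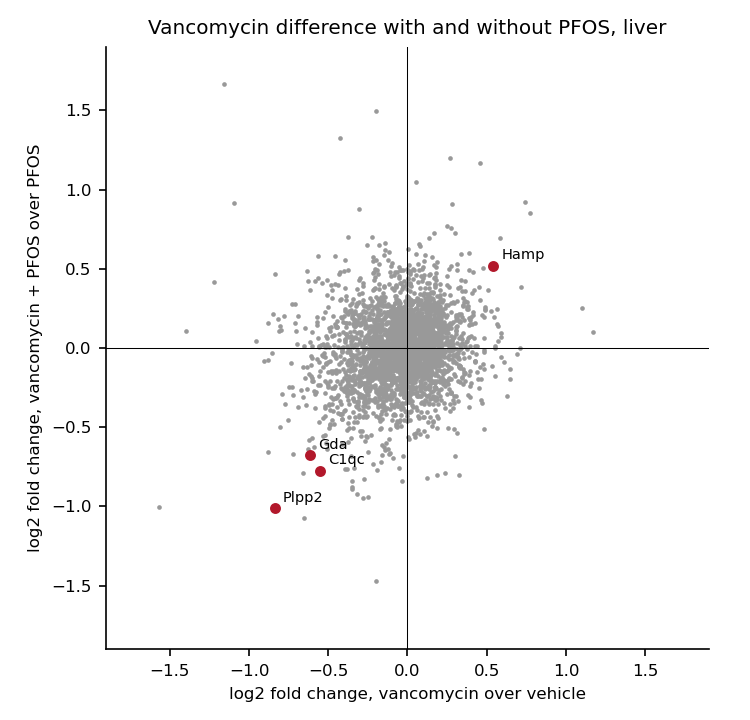
Log2 fold change of vancomycin over vehicle (x axis) against that of the combination over PFOS (y axis) for the 3250 genes tested in liver, with the 4 genes at an unadjusted p under 0.05 in both comparisons in red. The cloud is nearly round (Pearson r = 0.17), and the 4 genes lie on the same side in both. Their share of the genes at that p in either comparison is near the share over all genes.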

How the data were processed

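The deposited values were whole-number counts per gene and library, made by the authors from BRB-seq reads. BWA 0.7.4.4 is named beside build rn6, per the submitters' processing notes, with no role given; other steps are not given in the sources used here. The table held 17483 gene names and 192 library columns, all matched to labels.

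Liver libraries below 100000 counts were not used. The 4 liver groups were fitted in 1 model (R 4.3.3, edgeR 4.0.16): filterByExpr with a minimum count of 10, TMM scaling, robust quasi-likelihood F test, and Benjamini-Hochberg adjustment over the 3250 genes tested, with a threshold of 0.05. The SE is the log2 fold change divided by the t quantile of its p-value, and intervals are 95%. The fit was also run on simulated counts as a check of the code, and how often it finds small differences is not reported here. PFOS against vehicle, vancomycin against vehicle and the interaction come from the same model. Single values were compared with exact permutation tests.

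Also tried were DESeq2 1.42.0, edgeR with the DESeq2 size factors, limma 3.58.1 voom with quality weights, no filter, the compared groups alone, other depth minimums, all libraries, well column, log2 depth or barcode GC as terms, libraries of usual barcode GC alone, and each library left out.

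Named genes were the 10 lowest p-values on each side (mean count 5 or more in the group where the gene is higher), up to 4 members of each function list by p-value, fixed genes of bile acid, thyroid hormone and PFOS responses, and PFOS-responsive genes called in any comparison. A gene of the lower side is not reported here. Aqp9, Gda, Rab9a and marker genes outside those lists were named after their values were seen. The members, the 39 gene lists and these rules were chosen with earlier results of these data known, and the list of PFOS-responsive genes comes from these samples. Promoter sequences are from RefSeq, and coordinates are given in GRCr8 for them alone.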

Additional observations from a re-analysis of the deposited data

Results flagged for a closer look

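In 52 genes and the total count, each group was searched for a library far from the rest of its group by Dixon's test. Of 106 groups, 9 (8.49%) held such a library. The test flags about 1 in 20 where values are independent and normally distributed. CPM values need not be normal and the genes share the same libraries, so the share is a description. Combination replicate 42 was high for Timm10, at 113.6 CPM with 60.1 CPM as the next value, and for Spink1l, a secreted protease inhibitor, at 3561 CPM with 2017 CPM as the next. Combination replicate 45, with 137827 counts the shallowest of its group, was low for the matrix protein gene Dpt, at 221.8 CPM, and high for the AP-1 subunit Jund, at 49.29 CPM. Combination replicate 37 had the high Cyp8b1 value of 703.1 CPM, and combination replicate 46 had the highest total, 3387946 counts with 1193568 as the next. Among PFOS livers, replicate 35, the shallowest at 107856 counts, was high for Acat2 at 106.4 CPM and low for Cept1 at 8.184 CPM. PFOS replicate 33 was high for Slc10a1 at 934.2 CPM, with 542.6 CPM as the next value. The cause of these values was not tested.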

How the results depend on the processing

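The count of 0 calls between combination and PFOS livers held in all 12 alternatives and in 18 fits that each left out 1 library (lowest and highest 0). The same holds for vancomycin against vehicle in 12 alternatives and for the interaction in 11. The share of genes at an unadjusted p under 0.05 between combination and PFOS ran from 2.69% to 12.8%, the highest at a minimum depth of 500000 counts (544 of 4255 genes, 6 combination and 3 PFOS livers). The lowest adjusted p of any setting was 0.0554, without combination replicate 42, and 0.059 with no filter on low counts. PFOS against vehicle, with 27 calls, had 14 with no filter on low counts (12 higher, 2 lower), 8 in a fit of only the 2 groups (7 higher, 1 lower), 6 at a minimum depth of 500000 (0 lower), 14 with all libraries kept (10 higher, 4 lower), 4 with barcode GC as a covariate (0 lower), 5 without libraries of unusual barcode GC (0 lower) and 15 at a minimum depth of 200000 (10 higher, 5 lower), a setting chosen after seeing the data; the cause was not tested. Lower PFOS calls numbered 9 with DESeq2, 10 with the DESeq2 size factors and 11 with limma voom. With log2 depth as a covariate they numbered 11, and with well column as a factor 6. Of 1530 values of 129 named genes in the alternatives, 54 changed sign, in 25 genes, and 0 passed. No paired analysis was possible because the liver groups share no replicate number. Depth limits scarce genes most: 3250 of the 17483 genes listed could be tested.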

Other observations

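Abi2, an actin regulator, had the largest positive log2 fold change among genes of the PFOS-responsive list, 1.67 ± 0.76 (edgeR unadjusted p = 0.0344). Its combination libraries ran from 7.83 to 867 CPM with a median of 34.4 CPM, against 2.71 to 85.6 CPM with a median of 37.8 CPM under PFOS. The 2 highest combination libraries held 867 and 548 CPM. Fabp5, a fatty acid-binding protein, differed by -0.88 ± 0.43 and Otub2, a deubiquitinase, by -0.92 ± 0.41 in the same list.

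The combination library left out with 28558 counts, replicate 48, held 1.45% albumin counts, below the 3.99% to 7.29% of the kept combination livers. The 20 genes with the most counts over all kept liver libraries took 10.2% of the counts of replicate 48.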
